A study of Mus musculus with 17 samples.

Results

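The 10 genes described here encode the D-type cyclins (Ccnd1, Ccnd2 and Ccnd3), the E-type cyclins (Ccne1 and Ccne2), the kinases these cyclins switch on (Cdk4, Cdk6 and Cdk2), the phosphatase Cdc25a and the retinoblastoma protein Rb1. They were taken by symbol, matched to their Ensembl gene IDs, from 2 tables of 37576 and 33440 genes, and all 10 averaged 1 or more reads per 1000000 (RPM) in every comparison. The RNA came from fibroblasts of mouse embryos (MEFs, strain C57bl/6, stage E13.5) that were +/+, +/- or -/- for Usp28, a deubiquitinase. All cells, the +/+ controls included, were immortalized with pRetroSuper-shp19ARF, a retrovirus that expresses a short hairpin RNA against p19ARF. The immortalized set has 3 libraries for each genotype, with no overexpressed product. In the Ras set, with 2 libraries in each of 4 groups, cells of the 3 genotypes were also transformed with pBabe-HRasG12V, an activated HRas, and infected with pWZL-GFP, and another group of +/+ cells received pBabe-HRasG12V and pWZL-USP28. The sample labels do not say whether the libraries of a group came from separate embryos or cultures.

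These genes set the passage from G1 into S phase. D-type cyclins, made in response to growth signals such as those through Ras, bind Cdk4 or Cdk6 and begin the phosphorylation of Rb1, which in its unphosphorylated form holds E2F transcription factors inactive. Cyclin E with Cdk2, once Cdc25a has removed the inhibitory phosphates from Cdk2, completes this step. The freed E2F factors drive genes of DNA replication, and also Ccne1, Ccne2 and Cdc25a. Cyclin E1 protein is a known substrate of the ubiquitin ligase that contains Fbxw7, whose action Usp28 is known to oppose, so that much of the known regulation of this group lies at the protein level, which RNA does not show.

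Each group's level is a sum over its libraries, rebuilt from the authors' deposited tables. No value of a single library was used, which leaves the spread between replicates, and any overlap between the libraries of 2 groups, unknown. Depth was 11.4 to 12.4 M reads (M, 1000000 reads) per immortalized group and 11.4 to 13.95 M reads per Ras group. Usp28 itself was at 16.5, 9.96 and 13.3 RPM in immortalized +/+, +/- and -/- cells and at 26.5, 18.6, 14.8 and 26.4 RPM in Ras +/+, +/-, -/- and USP28 cells; the transcript persists in both -/- groups, so it does not check that label, and reads of a human USP28 vector need not map to the mouse gene. Fibroblast markers were high in all 7 groups (8 genes, 9770 to 45121 RPM in sum), although Thy1 was listed at 0 in Ras +/- and USP28 cells and under 1 RPM in the other Ras groups. Groups that differ in genotype also differed in other ways. Epithelial and mesothelial markers (8 genes) summed to 1254 RPM in immortalized +/- cells against 73.5 in +/+ and 78.8 in -/- cells, and to 2141 RPM in Ras +/- cells against 497 in +/+, 7.67 in -/- and 553 in USP28 cells; 7 of the 8 reached 1 RPM in both +/- groups, while Epcam stayed under 1 RPM everywhere. In Ras +/+ cells 2 of the 8 reached 1 RPM, Msln (425 RPM) and Krt19 (71.5 RPM). Msln went the other way from the sum in Ras +/- cells, at 209 RPM. Leukocyte, endothelial and neural markers never summed to more than 50.2 RPM. The X-linked Xist was at 89.7, 296 and 126 RPM in immortalized +/+, +/- and -/- cells and at 336, 25.5, 0.22 and 323 RPM in Ras +/+, +/-, -/- and USP28 cells. The Y-linked Eif2s3y was at 18.6, 0 and 14.9 RPM and at 0, 0.15, 22.4 and 0.07 RPM in the same order. It was thus at or near 0 in the groups with the most Xist and also in Ras +/- cells, while immortalized +/+ and -/- cells held both. The part of these differences in any result below was not tested, and in RNA from many cells, fewer cells of a type cannot be told apart from less RNA per cell.

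The genes lie on 8 chromosomes, and upstream sequence was available for 6 of the 10. In GRCm38, Ccnd1 is at chr7:144929931-144939925 on the minus strand, Ccnd2 at chr6:127125162-127152193 minus, Ccnd3 at chr17:47505051-47599691 plus, Cdk4 at chr10:127063534-127067920 plus and Cdk6 at chr5:3341485-3531008 plus. Ccne1 is at chr7:38097984-38107534 minus, Ccne2 at chr4:11191351-11204779 plus, Cdk2 at chr10:128697939-128705031 minus, Cdc25a at chr9:109875579-109893895 plus and Rb1 at chr14:73183673-73325822 minus. The deposited tables hold no coordinates, so these come from the GENCODE M21 annotation and not from mm9, the build of the alignment. A pair of upstream stretches is shown, because one belongs to the kinase that rose in Ras -/- cells and the other carries an E2F-type word before a gene of the E2F pathway. Both are RefSeq sequence of GRCm38.p6, plus strand, from 250 to 3 bases before the start site, at chr10:127063285-127063532 for Cdk4 and chr9:109875329-109875576 for Cdc25a, and capitals mark CACGTG in Cdk4 and TTTGGCGC in Cdc25a.
Cdk4: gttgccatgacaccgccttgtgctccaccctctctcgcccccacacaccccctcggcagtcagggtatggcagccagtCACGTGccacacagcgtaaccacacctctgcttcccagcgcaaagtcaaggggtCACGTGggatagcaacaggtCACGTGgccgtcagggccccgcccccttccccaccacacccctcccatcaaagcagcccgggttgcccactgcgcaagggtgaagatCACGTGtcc
Cdc25a: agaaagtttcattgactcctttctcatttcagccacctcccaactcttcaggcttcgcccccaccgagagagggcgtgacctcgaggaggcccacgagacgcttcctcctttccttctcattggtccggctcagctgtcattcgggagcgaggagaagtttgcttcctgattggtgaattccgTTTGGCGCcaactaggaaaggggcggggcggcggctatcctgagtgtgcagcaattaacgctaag
The E-box CACGTG, a word that reads the same on both strands and is bound by Myc and related factors, occurred 4 times before Cdk4. Of 32851 mouse promoters, 6.02% held at least 1 in the 250 bases before the start, and 0.0213% (7 promoters) held at least 4. Any of the E2F-type words TTTCCCGC, TTTCGCGC, TTTGCCGC or TTTGGCGC, on either strand, stood in 1.86% of the promoters. Cdk2 also held TTTCCCGC, on the opposite strand, and Cdk6 held 1 CACGTG, whereas Ccne1 and Ccnd3 held none of these words. A match is a description of letters and not evidence of binding.

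Per kilobase of exon, Ccnd1 and Cdk4 led the group in the Ras set and Cdk6 was low throughout. Levels are compared between genes only as reads per kilobase of merged exon and per 1000000 reads (RPKM). In immortalized +/+ cells, Ccnd1 made up 48.7% of the summed RPKM of the D-type cyclins, Ccnd2 34.2% and Ccnd3 17.1%. In immortalized +/- cells Ccnd2 came first with 55.2%, ahead of Ccnd1 with 37.3% and Ccnd3 with 7.46%. Ccnd1 was first again in immortalized -/- cells, at 54.5%. In all 4 Ras groups Ccnd1 held 64.7% to 69.7%, Ccnd2 20.8% to 29.7% and Ccnd3 5.68% to 9.52%. The sum over the D-type cyclins was 150.5, 227 and 217 RPKM in immortalized +/+, +/- and -/- cells and 215, 181, 227 and 223 RPKM in Ras +/+, +/-, -/- and USP28 cells.

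**Figure D1:**
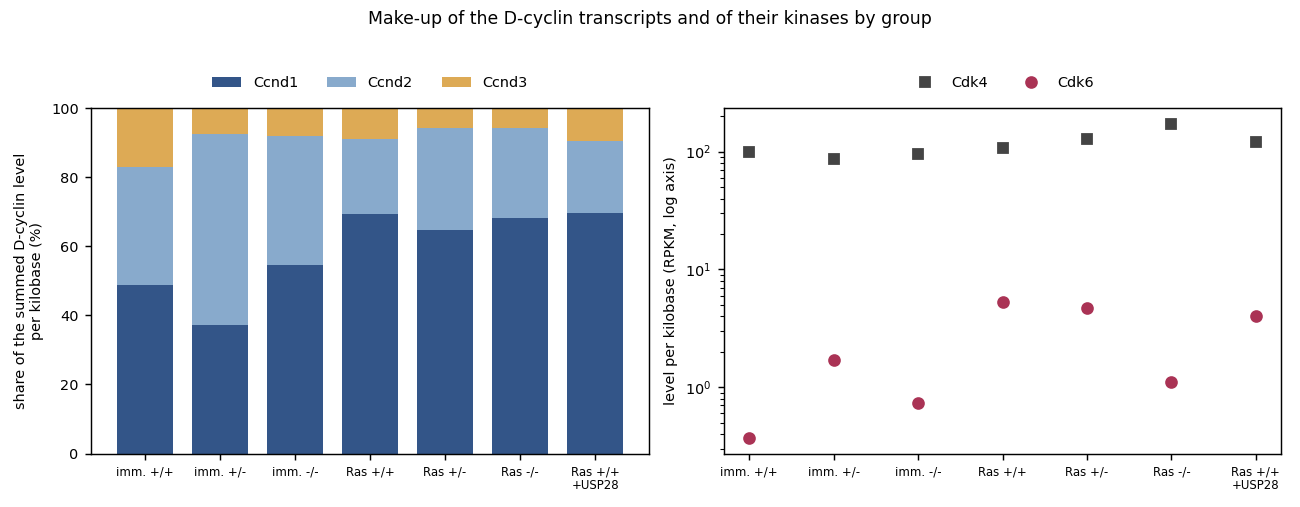
Left, the share in percent of each D-type cyclin in their summed RPKM, and right, the RPKM of Cdk4 and Cdk6 on a log axis, in each of the 7 groups, with no error bars because no value of a single library was used. Ccnd2 is the largest D-type cyclin only in immortalized +/- cells (55.2%), and Cdk6 lies below Cdk4 in every group, from 0.372 to 5.27 RPKM.

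Cdk4 was the main kinase for the D-type cyclins at the RNA level in all 7 groups, and the ratio of Cdk4 to Cdk6 varied widely. On the RPKM scale the ratio was 269, 50.9 and 129 in immortalized +/+, +/- and -/- cells. It was 20.4 in Ras +/+ cells, 27.3 in Ras +/- cells, 157 in Ras -/- cells and 30.0 in USP28 cells. Ccne1 was ahead of Ccne2 throughout, with 76.0% to 80.4% of their summed RPKM in the immortalized groups and 52.3% to 62.2% in the Ras groups. The 2 tables were normalized apart, and their +/+ levels lay a median of 0.60 log2 units apart over all genes, so levels of the 2 sets are placed side by side and not tested.

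**Figure D2:**
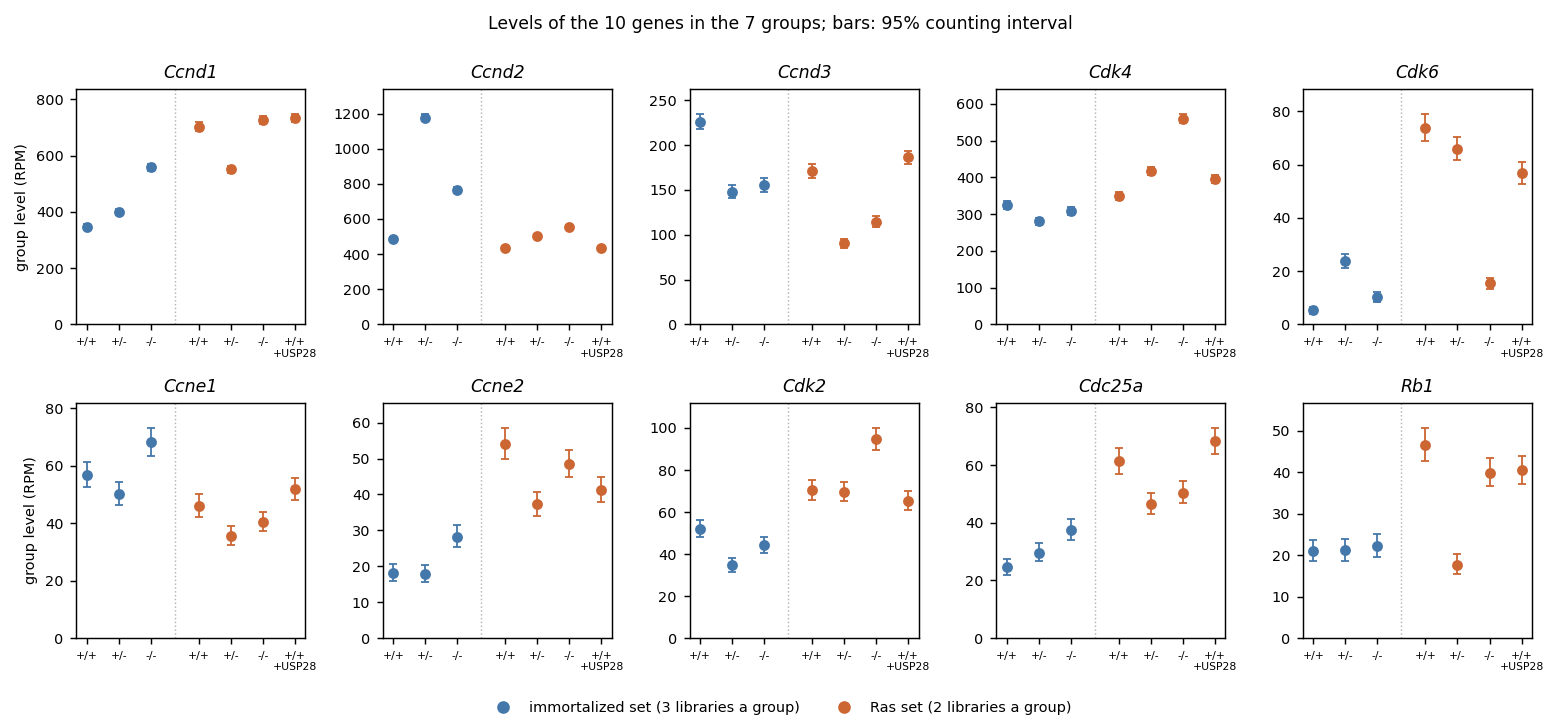
Level of each of the 10 genes in RPM, on linear axes that start at 0 and differ between genes, in the 3 immortalized (blue) and 4 Ras groups (orange), with bars for the 95% counting interval of the summed reads. Cdk6 ranges from 5.20 to 73.8 RPM, while Cdk4 stays between 280.1 and 559 RPM.

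Against +/+ cells, Ccnd2, Ccnd3, Cdk4, Cdk6, Ccne2 and Rb1 changed in at least 1 of 5 comparisons, and Ccnd1, Ccne1, Cdk2 and Cdc25a in none. A gene is called changed at a Benjamini-Hochberg adjusted p under 0.05, from the p of the edgeR comparison in the authors' deposited tables, adjusted over all genes that averaged 1 RPM or more. In immortalized -/- cells 0 of 10 were called, against 4.21% of all genes tested, although some 95% intervals given below leave out 0. In immortalized +/- cells 2 were called, both higher, against 8.25% of all genes. In Ras -/- cells 3 were called, 1 higher and 2 lower, against 27.6% of all genes, and in Ras +/- cells 3 were called, all lower, against 34.1%. With USP28, 0 of 10 were called, against 1.09% of all genes. The 3 of 10 in each of these Ras comparisons is close to the share of all genes called there. The comparisons of a set share its +/+ libraries. Folds below are log2 of the other group over +/+, and each SE is implied by the single dispersion of its comparison and is not a spread measured for the gene. The deposited p-values follow that single dispersion closely, so a small p does not show that the replicates of a gene were alike. Intervals given beside folds are 95% intervals from that SE. For direct differences between groups other than +/+, the SE is an upper bound for a gene with the common dispersion. Each group is given the dispersions of both comparisons, since the part of the shared +/+ libraries cannot be separated. As a less wide alternative, chosen after the data were seen, each group was given the dispersion of its own comparison, and the calls that differ under it are named below.

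**Figure D3:**
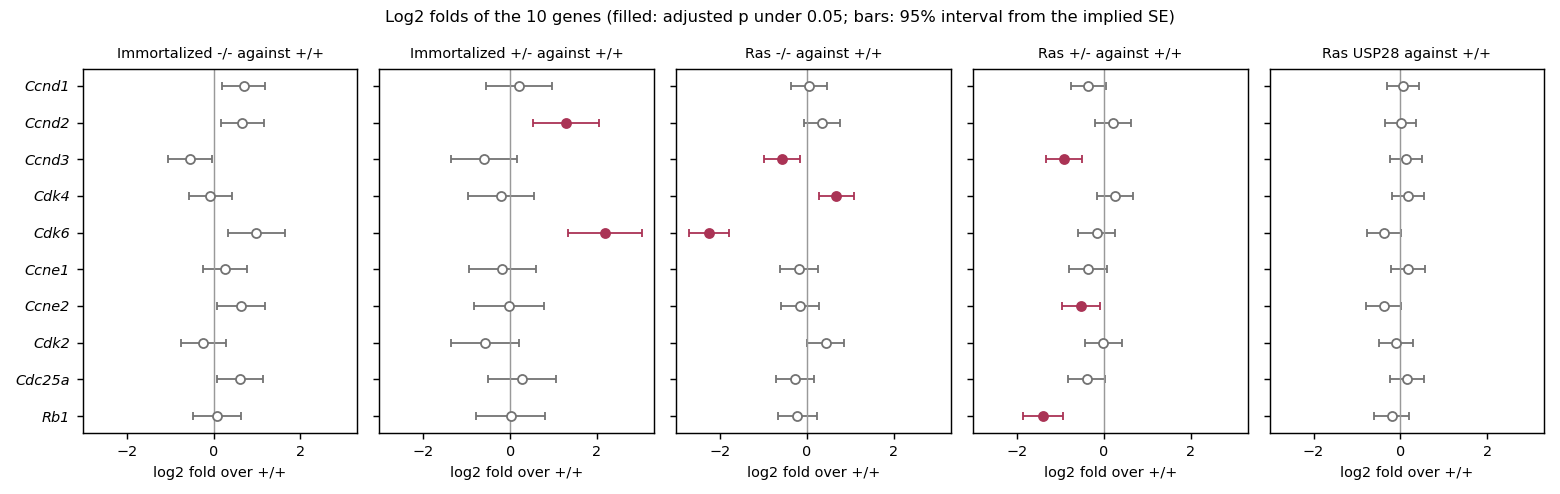
Log2 fold over +/+ of each of the 10 genes in the 5 comparisons, with bars for the 95% interval from the implied SE and filled points for genes called at an adjusted p under 0.05. Cdk6 stands farthest from 0 in immortalized +/- cells (2.18) and in Ras -/- cells (-2.27).

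Among the D-type cyclins, Ccnd2 rose in immortalized +/- cells and Ccnd3 fell in Ras +/- and Ras -/- cells. Ccnd2 was at 484 RPM in immortalized +/+ cells, 1177 in +/- cells and 765 in -/- cells. It was highest in the +/- group, with a log2 fold of 1.28 (SE 0.39) and an edgeR adjusted p of 0.0136. In -/- cells it stood 0.66 log2 units above +/+ (95% interval 0.17 to 1.15; adjusted p = 0.124, edgeR), and the direct difference between -/- and +/- cells was -0.62 (-1.52 to 0.28, or -1.26 to 0.02 with each group's own dispersion). The epithelial and mesothelial markers were also highest in immortalized +/- cells, at 1254 RPM against 73.5 in +/+ cells, and their part in the Ccnd2 value was not tested. In the Ras set Ccnd2 was at 436 RPM in +/+, 505 in +/-, 555 in -/- and 436 in USP28 cells, which are close together, and no fold was called.

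Ccnd3, the D-type cyclin known best from lymphocytes, had a lower level than in +/+ cells in all 4 groups of +/- or -/- cells. The difference was called in the Ras groups and not in the immortalized groups, but the difference between the sets was itself not called (Ras minus immortalized -0.03, interval -0.69 to 0.62, for -/- and -0.31, interval -1.18 to 0.56, for +/- cells). In the Ras set it was at 171 RPM in +/+, 90.2 in +/-, 115 in -/- and 186 in USP28 cells. The log2 fold was -0.92 (SE 0.21, adjusted p = 9.16e-05, edgeR) in +/- cells and -0.57 (SE 0.21, adjusted p = 0.0287, edgeR) in -/- cells. The direct difference between the -/- and +/- groups, 0.35 (interval -0.24 to 0.93), was not called. The smaller of these calls is close to the threshold: with the authors' own adjusted p, it was 0.0614. In the immortalized set Ccnd3 was at 226 RPM in +/+, 148 in +/- and 155 in -/- cells, with log2 folds of -0.61 (-1.37 to 0.15) and -0.54 (-1.04 to -0.04) that were not called. Bysl, on the opposite strand, shares 4.11% of the exon bases of Ccnd3, and the strand used in counting is not given in the sources used here; Bysl, a gene of ribosome assembly, was itself lower in Ras -/- cells (log2 fold -0.65, adjusted p = 0.0135, edgeR) and not called in Ras +/- cells (-0.35, adjusted p = 0.199, edgeR).

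Ccnd1, the D-type cyclin with the highest RPKM in 6 of the 7 groups, was called in none of the comparisons. It was at 345, 398 and 558 RPM in immortalized +/+, +/- and -/- cells. The highest value was that of -/- cells, where the fold was 0.69 on the log2 scale (interval 0.20 to 1.19) at an adjusted p of 0.0971 (edgeR). In the Ras set it was at 702 RPM in +/+, 551 in +/-, 728 in -/- and 732 in USP28 cells, with the lowest level in +/- cells (-0.35, interval -0.76 to 0.06), and no fold was called. Ccnd1 shares 23.4% of its exon bases with LTO1 on the opposite strand, and reads of the overlap cannot be told apart without strand. Over the 7 groups, the genes whose levels, centred on the mean of each table, were most like those of Ccnd1 were Myo9a, Psma3 and Nup153 (Pearson r of 0.996, 0.992 and 0.990 across 7 groups, the best of 11143 genes with a mean of at least 10 RPM). The 7 points share 2 tables, and r is given as a description of the best-ranked genes.

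Of the kinases, Cdk6 varied most. It rose in immortalized +/- cells and fell in Ras -/- cells. In the immortalized set it was at 5.20 RPM (64 reads) in +/+ cells, 23.7 RPM (295 reads) in +/- cells and 10.3 RPM (117 reads) in -/- cells. It rose in +/- cells, with a log2 fold of 2.18 (SE 0.43, adjusted p = 2.57e-05, edgeR), and in -/- cells the fold was 0.99 (interval 0.33 to 1.64; adjusted p = 0.0842, edgeR). The direct difference of -/- against +/- cells was -1.20. Whether it is called depends on the variance: the adjusted p was 0.190 with the upper bound (SE 0.49, Wald test over all genes) and 0.0145 with each group's own dispersion (SE 0.36, Wald test over all genes). With the upper bound 0 of the 10 genes were called in that direct comparison, beside 4.58% of all genes. With each group's own dispersion 1 was called, beside 8.58% of all genes. In immortalized +/- cells the epithelial and mesothelial markers summed to 1254 RPM against 73.5 in +/+ cells, and Xist was at 296 RPM against 89.7. Their part in the Cdk6 value was not tested.

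In the Ras set the order was another. Cdk6 was at 73.8 RPM (838 reads) in +/+ cells, 65.9 RPM (871 reads) in +/- cells, 15.3 RPM (214 reads) in -/- cells and 56.7 RPM (761 reads) in USP28 cells. The -/- group was low and the other 3 were close together. The log2 fold of -/- over +/+ cells was -2.27 (SE 0.24), a 4.81-fold lower level, with an adjusted p of 9.39e-20 (edgeR). In +/- cells the fold was -0.16 (-0.59 to 0.26) and with USP28 -0.38 (-0.77 to 0.01). Cdk6 was also lower in -/- cells than in +/- cells (-2.10, SE 0.31, adjusted p = 4.67e-10, Wald test over all genes) and than in USP28 cells (-1.88, SE 0.30, adjusted p = 9.93e-09, Wald test over all genes). In these direct comparisons 2 of the 10 genes were called against +/- cells, beside 24.4% of all genes, and 1 against USP28 cells, beside 18.8%. With each group's own dispersion these counts were 2 beside 36.7% and 4 beside 30.5%, the 4 being Cdk6, Ccnd3, Cdk4 and Cdk2.

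Ras -/- cells, where Cdk6 fell, also differed from Ras +/+ cells in the sex-linked genes and in some tissue markers. Ras -/- cells had Xist at 0.22 RPM against 336 in +/+ cells, and epithelial and mesothelial markers at 7.67 RPM in sum against 497. Most of the 497 was Msln (425 RPM in +/+ and 5.09 in -/- cells). Krt19 was at 71.5 and 0.22 RPM, and the others were each under 1 RPM in both groups. In Ras +/- cells Xist was at 25.5 RPM, the marker sum was 2141 RPM and Cdk6 was close to the +/+ level. The part of these differences in the Cdk6 value was not tested. Of the 5 genes tested that follow Cdk6 on chromosome 5, Gatad1 was called lower in Ras -/- cells (log2 fold -0.60, adjusted p = 0.0249, edgeR). The other 4 were not called, beside 27.6% of all genes called either way. This look at neighbours was chosen after the Cdk6 value was seen. By the likeness measure used for Ccnd1, the nearest patterns to that of Cdk6 were those of Rab5if, Gm12758 and Dennd5b (Pearson r of 0.993, 0.991 and 0.986 across 7 groups), which spanned 0.37, 0.67 and 1.05 on the log2 scale against 2.69 for Cdk6.

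Cdk4 rose in Ras -/- cells, where Cdk6 fell. It was at 349 RPM in Ras +/+, 418 in +/-, 559 in -/- and 395 in USP28 cells. The log2 fold of -/- over +/+ cells was 0.68 (SE 0.21, adjusted p = 0.00662, edgeR), while the direct differences of -/- from +/- cells (0.42, interval -0.16 to 1.00) and from USP28 cells (0.50, interval -0.05 to 1.05) were not called with the upper bound. With each group's own dispersion the difference from USP28 cells was called (interval 0.11 to 0.89, adjusted p = 0.0406, Wald test over all genes) and that from +/- cells was not (adjusted p = 0.102). In the immortalized set Cdk4 was at 324, 280.1 and 308 RPM in +/+, +/- and -/- cells, values within 1.16-fold of each other. On the RPKM scale the fall of Cdk6 in Ras -/- cells was from 5.27 to 1.10 and the rise of Cdk4 from 108 to 172, so that the sum of both kinases was 113 in +/+ and 173 in -/- cells. Cdk4 shares 19.7% of its exon bases with Tspan31 on the opposite strand, whose own log2 fold in Ras -/- cells was 0.49 (adjusted p = 0.0786, edgeR). The upstream stretch of Cdk4, shown above, holds 4 CACGTG words, and their part in its level was not tested.

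Of the cyclin E and Cdk2 arm, Ccne2 alone was called, in 1 comparison. Ccne2 was at 54.0 RPM in Ras +/+, 37.3 in +/-, 48.5 in -/- and 41.3 in USP28 cells. It fell in +/- cells, with a log2 fold of -0.53 (SE 0.22, adjusted p = 0.0481, edgeR), and the authors' own adjusted p for it was 0.102. In the immortalized set it was at 18.1, 17.8 and 28.3 RPM in +/+, +/- and -/- cells, and neither fold was called (-0.03, interval -0.83 to 0.78, and 0.64, interval 0.09 to 1.19). Ccne2 shares 17.4% of its exon bases with Ints8 on the opposite strand, and Ints8, of the Integrator complex, was lower in the same Ras +/- cells (log2 fold -0.75, adjusted p = 0.00236, edgeR).

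Ccne1, whose protein is the classic Fbxw7 substrate, had the narrowest range of the 10 genes, 0.54 on the log2 scale over the 7 groups after each table was centred. It was at 56.8, 50.1 and 68.1 RPM in immortalized +/+, +/- and -/- cells and at 45.9, 35.6, 40.4 and 51.8 RPM in Ras +/+, +/-, -/- and USP28 cells. The log2 folds in -/- cells were 0.26 (-0.25 to 0.77) in the immortalized set and -0.18 (-0.63 to 0.26) in the Ras set, intervals that leave out a doubling or a halving of its RNA at the common dispersion. Cdk2, its partner kinase, was at 52.0, 34.7 and 44.2 RPM in the immortalized groups and at 70.3, 69.6, 94.7 and 65.4 RPM in Ras +/+, +/-, -/- and USP28 cells. It was highest in Ras -/- cells, with a log2 fold of 0.43 (0.0021 to 0.86) and an adjusted p of 0.132 (edgeR), which is not a call. Cdc25a was at 24.7, 29.7 and 37.6 RPM in immortalized +/+, +/- and -/- cells, with a fold of 0.61 in -/- cells (0.07 to 1.14; adjusted p = 0.255, edgeR). In the Ras set Cdc25a was at 61.3, 46.6, 50.5 and 68.3 RPM in +/+, +/-, -/- and USP28 cells, and none of its folds was called.

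Rb1, the substrate of these kinases, fell in Ras +/- cells. It was at 46.5 RPM (529 reads) in Ras +/+, 17.7 RPM (235 reads) in +/-, 39.9 RPM (557 reads) in -/- and 40.5 RPM (544 reads) in USP28 cells. The +/- group was low and the other 3 were close together. Its log2 fold in +/- cells was -1.39 (SE 0.23, adjusted p = 3.58e-08, edgeR), a 2.62-fold lower level. Rb1 was higher in -/- cells than in +/- cells by 1.17 (SE 0.31, adjusted p = 0.00150, Wald test over all genes), and against +/+ cells the -/- fold was -0.22 (-0.66 to 0.22). In the immortalized set the 3 groups were at 21.1, 21.2 and 22.2 RPM, with folds of 0.01 (-0.79 to 0.80) in +/- and 0.08 (-0.48 to 0.63) in -/- cells.

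Lpar6, a receptor gene that lies within Rb1 on the opposite strand and shares 6.78% of the exon bases of Rb1, was lower in the same Ras +/- cells (log2 fold -1.63, adjusted p = 1.51e-09, edgeR). Rcbtb2, which overlaps 8.11% of them, was not called there (-0.39, adjusted p = 0.166, edgeR). Of 10 genes flanking Rb1, looked at after its value was seen, 2 were called lower in Ras +/- cells, beside 34.1% of all genes called either way. They were Sucla2 (log2 fold -0.65, adjusted p = 0.0120, edgeR) and Htr2a, which is listed at 0 reads there. The epithelial and mesothelial markers were highest in these cells, at 2141 RPM against 497 in +/+ cells, and Xist was at 25.5 RPM against 336; their part in the Rb1, Ccnd3 and Ccne2 values was not tested. In immortalized +/- cells the same markers were at 1254 RPM against 73.5, and Rb1 was at 21.2 RPM against 21.1. The part of the markers was not tested there either.

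The difference between the sets was tested for each gene by taking its immortalized fold from its Ras fold. For -/- cells, 1 of 10 genes was called, against 20.5% of all genes: Cdk6, with a difference of -3.24 on the log2 scale (SE 0.41, adjusted p = 1.58e-13, Wald test over all genes). For +/- cells, 2 were called, against 13.0% of all genes. They were Cdk6 (-2.33, SE 0.49, adjusted p = 4.17e-05, Wald test over all genes) and Rb1 (-1.40, SE 0.47, adjusted p = 0.0271, Wald test over all genes). The next smallest adjusted p-values for -/- cells were those of Cdc25a (-0.89, adjusted p = 0.0551, Wald test) and Cdk4 (0.75, adjusted p = 0.0893, Wald test), and for +/- cells that of Ccnd2 (-1.07, adjusted p = 0.0938, Wald test). The groups of the 2 sets also differ in Xist and in tissue markers as given above, which cannot be told apart from the genotype within a set.

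**Figure D4:**
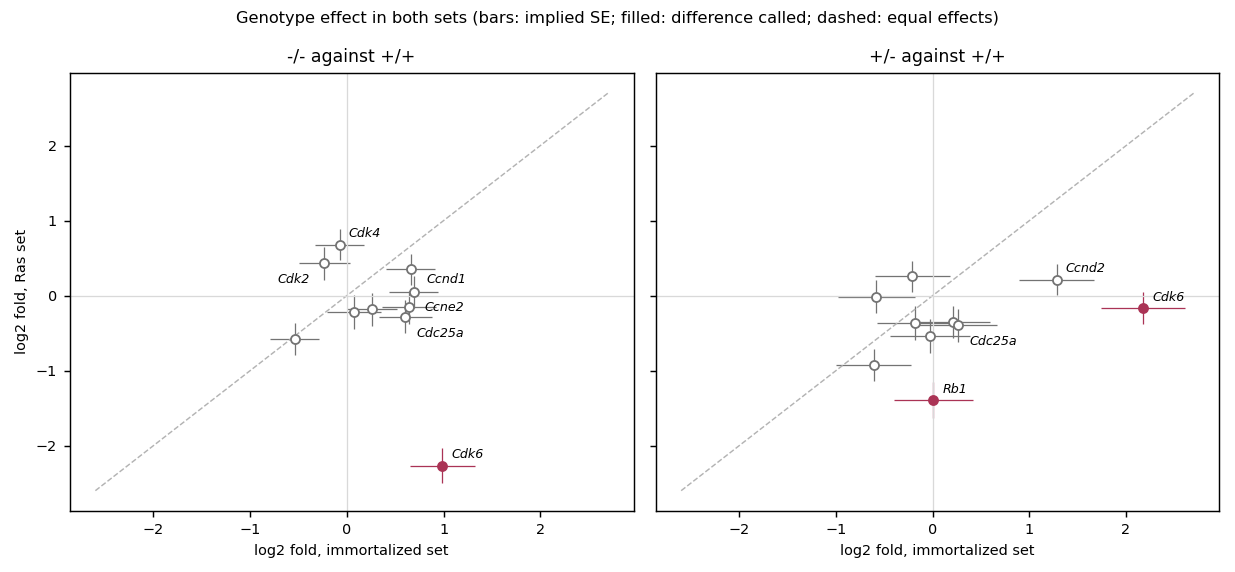
Log2 fold over +/+ in the Ras set against that in the immortalized set, for -/- cells on the left and +/- cells on the right, with a point for each of the 10 genes, bars of 1 implied SE, filled points where the difference was called and a dashed line of equal folds. Cdk6 lies far below the line in both panels (differences of -3.24 and -2.33), and Rb1 in the right panel (-1.40).

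The wider pathway was read from 6 lists of 62 genes, of which 60 were tested in the immortalized set and 59 in the Ras set. Called were 0 in immortalized -/- cells, 5 in immortalized +/- cells (8.33%), 12 in Ras -/- cells (20.3%), 15 in Ras +/- cells (25.4%) and 0 with USP28, beside the shares of all genes given above. Among the 6 CDK inhibitors tested in immortalized +/- cells, 3 rose and 1 fell, beside 8.25% of all genes called either way. The median log2 fold of this list was 1.06 against 0.00 for all genes. Cdkn1a, an inhibitor induced by p53, went from 119 to 394 RPM (log2 fold 1.72, adjusted p = 0.000281, edgeR). Cdkn1c went from 6.30 to 18.2 RPM (1.53) and Cdkn2b, an inhibitor of Cdk4 and Cdk6, from 59.6 to 139 RPM (1.22), while Cdkn2c, of the same family, fell from 40.0 to 15.6 RPM (-1.36). Of the regulators of CDK phosphorylation, the phosphatase Cdc25b fell there from 56.8 to 23.9 RPM (-1.25). The part of the epithelial and mesothelial markers, at 1254 against 73.5 RPM in these cells, was not tested.

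In Ras -/- cells 27.6% of all genes were called either way, and each list count in these cells stands beside that share. The inhibitor Cdkn1b, which binds cyclin E with Cdk2, rose from 43.9 to 108 RPM (log2 fold 1.30, adjusted p = 6.9e-08, edgeR), the only call among 5 CDK inhibitors tested. Of the 12 Rb family and E2F partner genes, E2f3 rose (0.71), whereas E2f4, known mainly as a repressor with the Rb family, fell from 191 to 82.3 RPM (-1.21) and Tfdp1, the dimer partner of E2F factors, fell from 271 to 182 RPM (-0.57). Of 7 other cyclins and kinases 3 rose and 0 fell, Ccnb2 from 23.6 to 77.9 RPM (1.72) and Ccnb1 and Ccnh by less. Wee1, the kinase that inhibits CDKs, rose from 27.1 to 49.8 RPM (0.88). Of 17 E2F targets of S phase, 3 fell (Mybl2, Ung and Rrm2) and 0 rose, beside 27.6% of all genes called either way. The median log2 fold of this list was -0.23 against -0.01 for all genes. Of the 12 genes of G1 cyclin turnover, Usp28 alone was called (-0.83), and Fbxw7 was at 27.1 RPM in +/+ and 27.0 RPM in -/- cells.

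In Ras +/- cells, where Rb1 fell, 34.1% of all genes were called either way, and each list count in these cells stands beside that share. Of the 12 Rb family and E2F partner genes 3 rose and 4 fell. E2f7, a repressor that is itself an E2F target, went from 130.3 to 53.4 RPM (log2 fold -1.29, adjusted p = 3.14e-08, edgeR) and E2f5 from 14.0 to 6.35 RPM (-1.14), while Tfdp2 rose from 27.2 to 65.8 RPM (1.27). Cdkn2a, the locus that encodes p19ARF and the Cdk4 and Cdk6 inhibitor p16, rose from 12.9 to 56.8 RPM (2.13, adjusted p = 7.75e-17, edgeR). A level for the whole gene does not tell these products apart. All cells received the hairpin against p19ARF, and its part in the Cdkn2a level was not tested. Cdkn2c fell from 69.6 to 34.0 RPM (-1.04). Cyclin A2, Ccna2, the S phase partner of Cdk2, fell from 217 to 103 RPM (-1.07), and Ccnb2 rose from 23.6 to 79.8 RPM (1.76). Of the 17 E2F targets 2 rose and 2 fell, with a median of 0.11 against 0.01 for all genes, so that this list had no common direction. The epithelial and mesothelial markers, at 2141 against 497 RPM in sum, also differed in these cells, and their part in these values was not tested.

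**Figure D5:**
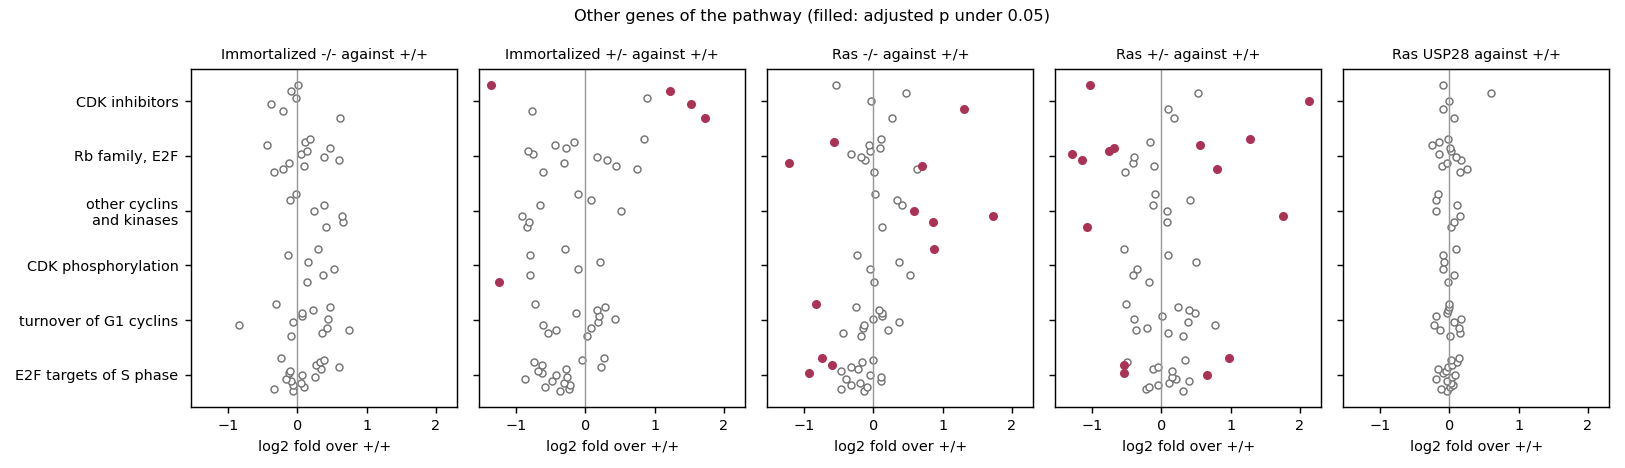
Log2 fold over +/+ of each tested gene of the 6 pathway lists in the 5 comparisons, with a point for each gene, filled where the adjusted p was under 0.05, and spread vertically within a list for legibility. No point is filled in immortalized -/- cells or with USP28, and the most, 15 of 59 genes, are filled in Ras +/- cells.

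With the USP28 vector none of the 10 genes was called. Their log2 folds lay between -0.39 for Ccne2 (interval -0.79 to 0.01) and 0.18 for Cdk4 (-0.19 to 0.55), and Cdk6 had -0.38. For Ccnd1 the interval was -0.31 to 0.42, for Ccne1 -0.22 to 0.57 and for Rb1 -0.60 to 0.20. The mouse Usp28 transcript was at 26.5 RPM in +/+ and 26.4 RPM in USP28 cells, and reads of the vector were not analysed here.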

How the data were processed

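The authors deposited 1 table for each set, which per the file headers gives, for every comparison of +/+ with another group, a log2 concentration, a log2 ratio and a p-value, with an adjusted p-value in the Ras table alone. Per the submitters' processing notes, the authors used CASAVA, FastQC, Bowtie 0.12.8, edgeR and mm9. Which table belongs to which set was taken from the groups it compares. Group levels were rebuilt as 2 to the power of the log2 concentration plus or minus 0.5 times the log2 ratio. Depth per group was read from the step that 1 read makes at low levels, and 80.2% to 100% of levels below 20 reads then came within 0.1 of a whole count. Counting intervals cover counting error only. A single dispersion per comparison was fitted to the deposited p-values (coefficient of variation 12.8% to 32.8%) and gives the implied SE, which is too small for genes that vary more than the typical gene. Deposited p-values were adjusted by Benjamini and Hochberg's method over genes of at least 1 RPM. Direct differences used an approximate two-sided Wald test with 0.5 reads added. Where both groups were compared with the same +/+ libraries, its variance gives each group the dispersions of both comparisons. That is an upper bound, and the test conservative, only for genes that vary no more than the typical gene. Over genes with enough reads, z-values rebuilt from that single dispersion followed the deposited ones with a Pearson r of 0.9990 to 0.9998. The p-values thus rest on a spread between libraries shared over genes, and not on the replicates of the gene itself. That spread may be technical, and 2 NEBNext kits were used without a label for each library. RPKM used merged exons of GENCODE M21. Python 3.11.15, numpy 2.4.6, pandas 2.3.3, scipy 1.17.1 and matplotlib 3.10.9 were used. The 10 genes, the pathway and marker lists and the tests were chosen with earlier results of these data known. All 10 genes are named in every comparison, and of a pathway list at most the 4 called genes with the smallest p per comparison. Alternatives were no filter, a threshold of 0.01, a doubled dispersion, centred folds and the authors' adjusted p, and, added after the data were seen, each group's own dispersion in those direct differences.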

Additional observations from a re-analysis of the deposited data

Results flagged for a closer look

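The effect of genotype differed between the Ras and the immortalized set for 3 results, by the Wald test of the difference adjusted over all genes. For Cdk6 in -/- cells the difference was -3.24 on the log2 scale, with folds of -2.27 in the Ras set and 0.99 in the immortalized set. For Cdk6 in +/- cells it was -2.33, with folds of -0.16 and 2.18. For Rb1 in +/- cells it was -1.40, with folds of -1.39 and 0.01.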

How the results depend on the processing

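The calls of Cdk6 in immortalized +/- and Ras -/- cells, and those of Rb1 and Ccnd3 in Ras +/- cells, were kept under all alternatives run for them. With a doubled dispersion 1 gene was called in immortalized +/- cells (Cdk6) and 1 in Ras -/- cells (Cdk6), since Ccnd2 then had an adjusted p of 0.255, Cdk4 of 0.102 and Ccnd3 of 0.196. At a threshold of 0.01, 1 was called in immortalized +/- cells. Ccnd3 in Ras -/- cells was not called with no filter (adjusted p 0.0568) or by the authors' adjusted p (0.0614), nor was Ccne2 in Ras +/- cells (0.0941 and 0.102). For the difference between the sets, 1 gene was called for +/- cells with no filter, at 0.01 and with a doubled dispersion, where Rb1 had an adjusted p of 0.0550 with no filter and 0.246 with the doubled dispersion. With each group's own dispersion in place of the upper bound, an alternative chosen after the data were seen, 1 gene in place of 0 was called for immortalized -/- against +/- cells (Cdk6, adjusted p 0.0145) and 4 in place of 1 for Ras -/- against USP28 cells, where Ccnd3 (0.00316), Cdk4 (0.0406) and Cdk2 (0.0354) joined Cdk6; over all genes the calls went from 779 to 1459, from 3936 to 5906 for Ras -/- against +/- cells and from 2972 to 4831. Centring the folds moved that difference for all genes in -/- cells by 0.10, and 2 genes were then called, Cdk4 (0.85, adjusted p 0.0483) beside Cdk6. It also turned the sign of 3 values near 0, to -0.0095 for Ccnd2 with USP28, 0.011 for Ccnd1 in Ras -/- against USP28 cells and 0.065 for Ccnd3 in the -/- difference between the sets. Over all genes, the doubled dispersion left 312 of 705 calls in number in immortalized -/- cells, 860 of 1406 in immortalized +/- cells, 2678 of 4381 in Ras -/- cells, 375 of 779 and 2419 of 3936 for -/- against +/- cells of the immortalized and Ras sets, 1756 of 2972 against USP28 cells, and 1669 of 3096 and 1027 of 1980 for the -/- and +/- differences between the sets. At 0.01 the counts were 424 in immortalized -/- cells and 2045 and 1293 for those differences. No paired analysis was possible because the tables hold no values for single libraries, and for the same reason leaving out each replicate was not run.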

Other observations

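A pair of genes beside Rb1, looked at after the value of Rb1 was seen, had folds unlike its own. Itm2b, the first tested gene after Rb1 on chromosome 14, had a log2 fold of 1.45 in Ras -/- cells (adjusted p = 2.8e-10, edgeR) and Fndc3a, before it, one of 1.37 (adjusted p = 1.34e-08, edgeR), where Rb1 was at -0.22. In Ras +/- cells, where Rb1 fell by 1.39, Itm2b was at 0.06 and Fndc3a at -0.11, and neither was called. In immortalized -/- cells Itm2b was lower (-0.93, adjusted p = 0.00901, edgeR).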
